A study of Mus musculus with 22 samples.

Results

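The genes described here are 36 immediate early and NF-kB response genes, read in conventional dendritic cells (cDCs) of the mouse. They were taken by symbol from a list of 36 names, and all 36 were found among the 34047 genes of the bulk RNA-seq count table. The list holds 9 subunits of AP-1 and related factors (Fos, Fosb, Fosl1, Fosl2, Jun, Junb, Jund, Atf3 and Maff) and 3 zinc finger factors of the EGR family (Egr1, Egr2 and Egr3). It holds 6 other early response genes (Ier2, Ier3, Ier5, Csrnp1, Cd69 and Mcl1) and 5 dual-specificity phosphatases (Dusp1, Dusp2, Dusp4, Dusp5 and Dusp6). A further 6 act on mRNA decay, growth arrest or stress recovery (Zfp36, Zfp36l1, Btg1, Btg2, Ppp1r15a and Gadd45b). The last 7 belong to the NF-kB pathway, of which 3 encode subunits (Nfkb1, Nfkb2 and Rel) and 4 encode inhibitors or other regulators (Nfkbia, Nfkbiz, Nfkbid and Tnfaip3).

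Immediate early genes are transcribed within minutes of a stimulus, without new protein synthesis, and their mRNAs are short-lived. In dendritic cells, signals from pattern recognition receptors reach them through MAP kinases, which act on SRF partners and AP-1, and through release of NF-kB from its inhibitors, and several of the induced genes encode phosphatases, inhibitors and mRNA decay factors that end the response. The same genes are also known to be induced when tissue is digested and cells are sorted.

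The study compared cDC1s (XCR1+), T-bet- cDC2s and T-bet+ cDC2s sorted from Tbx21RFP-cre mice, which are homozygous for a knock-in that places RFP and Cre at Tbx21, the gene for T-bet, so that RFP marks cells with an active Tbx21 locus. All groups shared that genotype, the labels name no treatment, and mice of 6 to 10 weeks and of both sexes were used unless noted otherwise. The RNA libraries were made from cells pooled from 2 mice, and they comprised 3 of each subset from spleen, 3 of cDC1s from mesenteric lymph nodes (MLN) and 2 of each cDC2 subset from MLN. ATAC-seq, which reads open chromatin, was run on spleen cells with 2 libraries of each subset. No group without tissue digestion and sorting is among the libraries used here, so what the cells held before these steps was not measured. In bulk samples, fewer cells that express a gene and less of its RNA per cell cannot be told apart.

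The counts on genes were 20993220 to 29006549 per RNA library, and those in ATAC-seq windows were 7270164 to 10081555. Markers followed the labels, in that the 6 cDC1 genes summed to 5927 to 6871 CPM (counts scaled to the size of the library) in spleen cDC1s and to at most 586 CPM in spleen cDC2s, and Tbx21 was at 17.1 to 24.7 CPM in spleen T-bet+ cDC2s and at most 2.35 CPM in the other spleen libraries. In MLN, Tbx21 was lower, at 3.02 and 7.12 CPM in T-bet+ cDC2s. Summed macrophage markers were 1059 to 1478 CPM in spleen T-bet- cDC2s, 449 to 529.5 CPM in T-bet+ cDC2s and 109 to 212 CPM in cDC1s, and in MLN they were 1401 to 2419 CPM, 398 to 398.5 CPM and 75.5 to 210.2 CPM in the same order. Summed neutrophil markers were 247.5 to 281 CPM in spleen T-bet+ cDC2s, 166 to 172 CPM in T-bet- cDC2s and 15.5 to 22.8 CPM in cDC1s. Most of the T-bet+ sum was Mmp9, which the study reports as higher in T-bet+ cDC2s. Mmp9 was at 201.7 to 231.8 CPM in spleen T-bet+ and 4.94 to 11.8 CPM in T-bet- cDC2s. Csf3r had the reverse order, at 8.76 to 11.2 CPM and 105.3 to 132 CPM. B cell markers summed to at most 115 CPM and T cell markers to at most 35.1 CPM in any library, monocyte markers to at most 137.5 CPM, NK cell markers to at most 130.5 CPM and erythroid markers to at most 11.2 CPM. Most of that NK cell maximum was Klrk1, at 129 CPM in a spleen T-bet- library. The study names Klrk1 among the markers of a T-bet- cDC2 cluster. The part of these other markers in the results was not tested. Libraries also differed in how their counts followed the GC content of transcripts (Spearman rho across 7470 genes, with the list left out). The rho was 0.203 to 0.34 in 6 spleen libraries, called the higher class here, namely the 3 of T-bet+ cDC2s, replicate 3 of T-bet- cDC2s and replicates 1 and 2 of cDC1s. It was -0.406 to -0.183 in the other 3 spleen libraries (T-bet- cDC2s 1 and 2 and cDC1s 3) and -0.311 to 0.049 in the 7 MLN libraries, which form the lower class. All 3 spleen T-bet+ libraries were therefore in the higher class, and the genes whose spleen calls changed when the lower class was left out are named with that alternative.

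Levels were first compared between genes on the scale of CPM per kilobase of annotated exons. In spleen T-bet+ cDC2s the highest were Junb at 2121, the antiproliferative gene Btg2 at 1981, Fos at 1568 and Atf3 at 1327 CPM per kb. The lowest were Fosl1 at 0.596 and Dusp4 at 0.949 CPM per kb. In the other groups Btg2 was at 1554 and Fos at 1360.4 CPM per kb in spleen T-bet- cDC2s, Btg2 was at 1109 CPM per kb in spleen cDC1s, and the highest gene of each MLN subset was at 1131 (Fos in cDC1s) to 1589 CPM per kb (Zfp36 in T-bet- cDC2s). Fos, Btg2 and Zfp36 were among the 5 highest of the 36 genes in all 6 groups of subset and tissue.

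**Figure D1:**
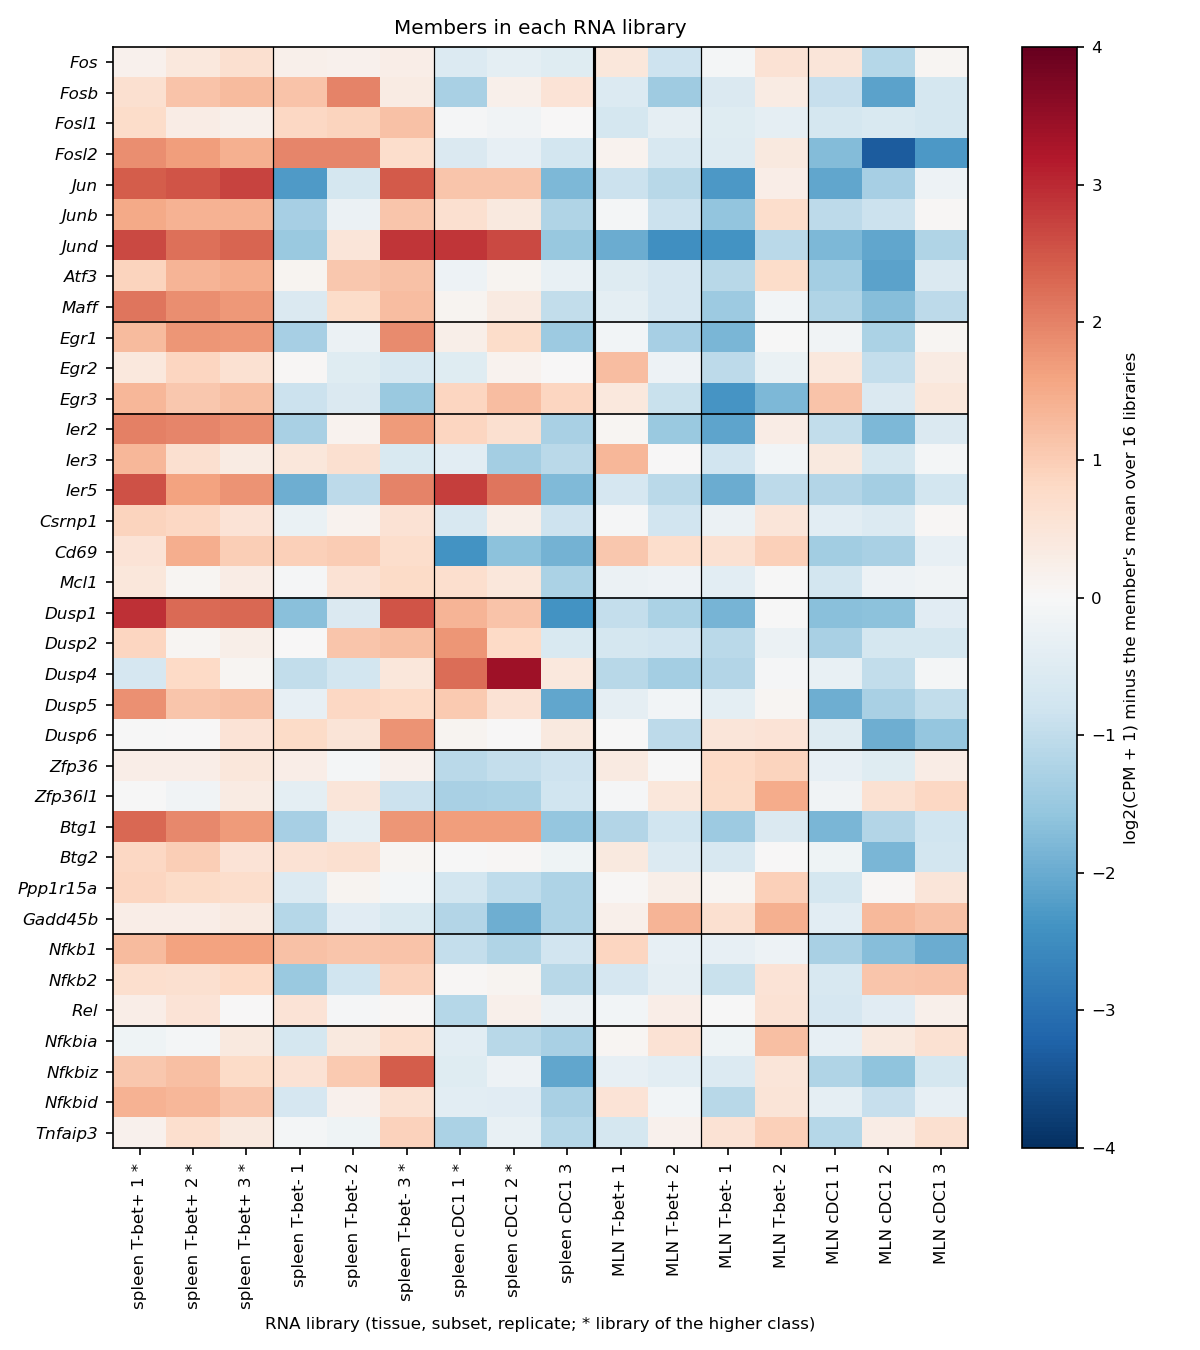
Levels of the 36 genes (rows, grouped by role) in the 16 RNA libraries (columns, by tissue, subset and replicate, with a star for a library of the higher class), drawn as log2(CPM + 1) minus the mean of each gene over the libraries. The 3 spleen T-bet+ libraries and the other starred libraries are high for Jun, Jund, Ier5 and Dusp1, while Nfkb1, Cd69 and Fosl2 are high in all cDC2 libraries of spleen whatever their class.

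In spleen, the genes were on the whole higher in cDC2s than in cDC1s. Between T-bet+ cDC2s and cDC1s, 15 of 36 rose and 0 fell (edgeR's quasi-likelihood test, Benjamini-Hochberg adjusted p under 0.05 over 14377 genes), against a background of 9.98% of all genes tested that rose and 8.2% that fell. Between T-bet- cDC2s and cDC1s, 9 rose and 2 fell, against 9.65% and 6.2%. Between T-bet+ and T-bet- cDC2s, 2 rose (Egr3 and Ppp1r15a) and 0 fell, against 1.95% and 3.44%. The median log2 fold change of the 36 genes was 1.17, 0.69 and 0.56 in these comparisons, beside 0.03, -0.01 and -0.01 for all genes tested. The comparisons with cDC1s share the cDC1 libraries, and each comparison shares libraries with the next, so their counts are not independent.

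In MLN, where 35 of the genes were tested (Fosl1 was too low), fewer passed. Between T-bet+ cDC2s and cDC1s, 2 rose (Cd69 and Nfkb1) and 0 fell, against a background of 4.11% and 2.11% of 15298 genes. Between T-bet- cDC2s and cDC1s, 3 rose (Fosl2, Cd69 and Dusp5) and 0 fell, against 4.34% and 1.44%. With the numbers in the library names as a replicate block, which the check given with the alternatives did not show to pair all libraries, these counts were 9 and 12. The share of all genes that passed with that block is not given, so the rise is not read as a result about these genes. Between T-bet+ and T-bet- cDC2s, 0 of 35 passed by edgeR's test and 0 by DESeq2, against a background of 0.0% in either direction, and 2 were at an unadjusted p under 0.05, beside 9.44% of all genes. The median log2 fold changes were 0.22, 0.52 and -0.25 in these comparisons, beside -0.0, 0.01 and -0.02 for all genes. On simulated counts of T-bet+ cDC2s and cDC1s, 4-fold changes were recovered in 78% of changed genes with the MLN libraries and in 92% with the spleen libraries.

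Among the AP-1 subunits, Fosl2, Fos and Atf3 were higher in both cDC2 subsets of spleen than in cDC1s, and Maff was higher in T-bet+ cDC2s. Fosl2 was measured at 190.1, 167 and 139.9 CPM in spleen T-bet+ cDC2s, 202.5, 204 and 85.0 CPM in T-bet- cDC2s and 34.1, 41.0 and 30.4 CPM in cDC1s, and the MLN values were 56.7 and 33.0 CPM in T-bet+ cDC2s, 35.9 and 68.5 CPM in T-bet- cDC2s and 14.8, 4.18 and 9.68 CPM in cDC1s. All cDC2 libraries were above all cDC1 libraries of the same tissue, while the cDC2 subsets overlapped. Fosl2, which encodes the FOS family member FRA2, rose in T-bet+ cDC2s over cDC1s of spleen (log2 fold change 2.26 with an SE of 0.34, adjusted p = 0.00157) and in T-bet- cDC2s over cDC1s of spleen (log2 fold change 2.25 with an SE of 0.34, adjusted p = 0.00174) and MLN (log2 fold change 2.47 with an SE of 0.54, adjusted p = 0.037). The MLN difference between T-bet+ cDC2s and cDC1s was of like size, at 2.23 (adjusted p = 0.0502, SE 0.54), and did not pass. Fos was measured at 3108, 3696 and 4258 CPM in spleen T-bet+ cDC2s, 3179, 3115 and 3305 CPM in T-bet- cDC2s and 1859.7, 2070.4 and 1956 CPM in cDC1s. The spleen cDC2s did not overlap the cDC1s, and the fold was below 2 in both comparisons (log2 fold change 0.94 with an SE of 0.15, adjusted p = 0.00209 for T-bet+ and log2 fold change 0.74 with an SE of 0.15, adjusted p = 0.00828 for T-bet- cDC2s). The MLN values were 3722 and 1548.5 CPM in T-bet+ cDC2s, 2621 and 4064 CPM in T-bet- cDC2s and 3820.0, 1244 and 2915.5 CPM in cDC1s, with overlap.

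Atf3 was measured at 2221, 3059 and 3295 CPM in spleen T-bet+ cDC2s, 1296, 2538 and 2689 CPM in T-bet- cDC2s and 1039, 1305 and 976 CPM in cDC1s. Atf3, a stress-induced member of the ATF family that dimerises with JUN proteins, was higher in every T-bet+ library than in any cDC1 library, and T-bet- cDC2s overlapped cDC1s (log2 fold change 1.39 with an SE of 0.29, adjusted p = 0.00812 and log2 fold change 1.01 with an SE of 0.28, adjusted p = 0.0395). The MLN values were 835 and 749.5 CPM in T-bet+ cDC2s, 557 and 2015 CPM in T-bet- cDC2s and 464, 273 and 811 CPM in cDC1s, with overlap. Maff was measured at 26.2, 21.6 and 19.7 CPM in spleen T-bet+ cDC2s, 3.18, 9.28 and 13.5 CPM in T-bet- cDC2s and 5.64, 6.96 and 2.12 CPM in cDC1s, and the MLN values were 3.76 and 2.86 CPM in T-bet+ cDC2s, 1.28 and 4.80 CPM in T-bet- cDC2s and 1.68, 0.914 and 2.02 CPM in cDC1s. Maff, a small MAF protein without a transactivation domain, was higher in T-bet+ cDC2s than in cDC1s in both tissues without overlap, and the difference passed in spleen (log2 fold change 2.21 with an SE of 0.57, adjusted p = 0.0235) and not in MLN, where it was 1.12 (adjusted p = 0.336, SE 0.62). Fosl1, which encodes FRA1, was low in all libraries. Fosl1 was measured at 1.72, 1.01 and 0.909 CPM in spleen T-bet+ cDC2s, 1.90, 2.07 and 2.73 CPM in T-bet- cDC2s and 0.600, 0.491 and 0.658 CPM in cDC1s, and the MLN values were 0 and 0.278 CPM in T-bet+ cDC2s, 0.169 and 0.271 CPM in T-bet- cDC2s and 0, 0.0870 and 0 CPM in cDC1s. The spleen libraries of T-bet- cDC2s and cDC1s did not overlap and the difference passed (log2 fold change 1.97 with an SE of 0.46, adjusted p = 0.0178), but it did not without the lower class, at 2.32 (adjusted p = 0.0944). Of the other AP-1 genes, Fosb ranged over 44.7 to 796 CPM, Jun over 46.5 to 1506 CPM, Junb over 608 to 5197 CPM and Jund over 2.82 to 152.5 CPM across the 16 libraries, and none of the 4 passed in a comparison of subsets within a tissue.

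Among the EGR factors, Egr3 set the cDC2 subsets apart. Egr3 was measured at 70.3, 59.0 and 64.1 CPM in spleen T-bet+ cDC2s, 14.6, 18.0 and 9.26 CPM in T-bet- cDC2s and 50.3, 65.5 and 50.3 CPM in cDC1s. The T-bet+ libraries and the cDC1 libraries lay together, and the 3 T-bet- libraries lay below all of them. Egr3 was higher in T-bet+ cDC2s than in T-bet- cDC2s (log2 fold change 2.20 with an SE of 0.29, adjusted p = 0.00255) and lower in T-bet- cDC2s than in cDC1s (log2 fold change -1.95 with an SE of 0.28, adjusted p = 0.00134), and both calls held in each of the 16 alternative settings tried. Between T-bet+ cDC2s and cDC1s the log2 difference was 0.24 (adjusted p = 0.62, SE 0.27). In MLN, Egr3 was at 37.5 and 14.4 CPM in T-bet+ cDC2s, 4.59 and 7.24 CPM in T-bet- cDC2s and 61.3, 18.0 and 38.3 CPM in cDC1s. The T-bet- libraries were again below those of both other subsets, with log2 differences of a size close to that in spleen that did not pass, at 2.11 (adjusted p = 0.38, SE 0.66) for T-bet+ against T-bet- cDC2s and -2.70 (adjusted p = 0.0534, SE 0.65) for T-bet- cDC2s against cDC1s.

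Egr2 had the same order between the cDC2 subsets and did not pass in either tissue. Egr2 was measured at 263, 362 and 301 CPM in spleen T-bet+ cDC2s, 205, 141.5 and 127 CPM in T-bet- cDC2s and 142, 221 and 202 CPM in cDC1s, and the MLN values were 472 and 172 CPM in T-bet+ cDC2s, 95.0 and 163 CPM in T-bet- cDC2s and 267.5, 101 and 250.2 CPM in cDC1s. T-bet+ libraries were above T-bet- libraries in each tissue without overlap, while cDC1s overlapped T-bet- cDC2s in spleen and both cDC2 subsets in MLN. The log2 difference between T-bet+ and T-bet- cDC2s was 0.96 (adjusted p = 0.0595, SE 0.25) in spleen and 1.30 (adjusted p = 0.578, SE 0.62) in MLN. Egr1, the family member best known as an immediate early gene, ranged over 39.2 to 528 CPM and passed in no comparison of subsets.

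Cd69, the early activation antigen that retains leukocytes in tissue, showed the largest rise in spleen cDC2s over cDC1s among the 36 genes, in both comparisons. Cd69 was measured at 65.5, 124 and 89.5 CPM in spleen T-bet+ cDC2s, 86.7, 90.9 and 73.8 CPM in T-bet- cDC2s and 7.64, 13.8 and 11.4 CPM in cDC1s, and the MLN values were 96.1 and 73.6 CPM in T-bet+ cDC2s, 68.2 and 86.8 CPM in T-bet- cDC2s and 16.5, 17.6 and 35.2 CPM in cDC1s. Each cDC2 library was above each cDC1 library of its tissue, and the cDC2 subsets overlapped. In spleen the log2 difference from cDC1s was 3.11 (adjusted p = 0.000152, SE 0.32) for T-bet+ and 2.97 (adjusted p = 0.0002, SE 0.32) for T-bet- cDC2s. In MLN it was 1.90 (adjusted p = 0.0212, SE 0.35) and 1.80 (adjusted p = 0.0258, SE 0.35) in the same order. The spleen calls held in each of the 16 alternative settings.

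Ier3 was measured at 186, 115 and 92.7 CPM in spleen T-bet+ cDC2s, 102, 115.5 and 48.1 CPM in T-bet- cDC2s and 55.3, 28.2 and 34.2 CPM in cDC1s. Ier3, an early response gene that limits apoptosis, was higher in each spleen T-bet+ library than in any cDC1 library (log2 fold change 1.77 with an SE of 0.42, adjusted p = 0.0162). The MLN values were 188 and 74.3 CPM in T-bet+ cDC2s, 43.4 and 68.8 CPM in T-bet- cDC2s and 97.3, 44.5 and 69.9 CPM in cDC1s, with overlap. Csrnp1, a nuclear protein first found as an AXIN1 target, also rose in spleen T-bet+ cDC2s over cDC1s (log2 fold change 1.12 with an SE of 0.32, adjusted p = 0.0379). Ier2, Ier5 and Mcl1, the last an anti-apoptotic BCL2 relative, ranged over 52.3 to 932, 23.9 to 668 and 55.0 to 229 CPM and passed in no comparison of subsets.

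The dual-specificity phosphatases, which switch off MAP kinases, gave few calls. Dusp4 was measured at 0.977, 4.47 and 2.35 CPM in spleen T-bet+ cDC2s, 0.616, 0.907 and 3.36 CPM in T-bet- cDC2s and 14.0, 32.1 and 3.29 CPM in cDC1s. The MLN values were 0.484 and 0.238 CPM in T-bet+ cDC2s, 0.405 and 2.09 CPM in T-bet- cDC2s and 1.60, 0.609 and 2.02 CPM in cDC1s. Dusp4, which acts on ERK and other MAP kinases, varied widely within spleen cDC1s, and it was lower in T-bet- cDC2s than in cDC1s (log2 fold change -3.31 with an SE of 0.95, adjusted p = 0.043) although the libraries overlapped. Without the lower class its difference was -2.76 (adjusted p = 0.0771). Dusp5 was measured at 347, 214 and 224.5 CPM in spleen T-bet+ cDC2s, 77.7, 176 and 171.5 CPM in T-bet- cDC2s and 203, 148 and 22.6 CPM in cDC1s, and the MLN values were 76.4 and 91.2 CPM in T-bet+ cDC2s, 75.3 and 104 CPM in T-bet- cDC2s and 24.8, 39.0 and 49.2 CPM in cDC1s. Dusp5, which acts on nuclear ERK, was higher in T-bet+ cDC2s than in cDC1s in both tissues without overlap, and it passed only in MLN between T-bet- cDC2s and cDC1s (log2 fold change 1.31 with an SE of 0.30, adjusted p = 0.0443), a call that was lost when any 1 of the 7 libraries was left out. Dusp6 was measured at 48.7, 49.9 and 72.3 CPM in spleen T-bet+ cDC2s, 84.5, 70.8 and 173 CPM in T-bet- cDC2s and 53.9, 49.7 and 65.6 CPM in cDC1s, and the MLN values were 48.7 and 23.3 CPM in T-bet+ cDC2s, 69.5 and 72.7 CPM in T-bet- cDC2s and 34.5, 12.1 and 16.3 CPM in cDC1s. Dusp6, which acts on cytoplasmic ERK, was higher in T-bet- cDC2s than in cDC1s in both tissues without overlap, with log2 differences of 1.00 (adjusted p = 0.0822, SE 0.34) in spleen and 1.80 (adjusted p = 0.0801, SE 0.50) in MLN. Neither passed, and without the lower class the spleen difference between T-bet+ and T-bet- cDC2s was -1.61 (adjusted p = 0.0126). Dusp2, a phosphatase of activated lymphoid and myeloid cells, ranged over 5.66 to 54.6 CPM, and Dusp1 is described with the genes that followed the library.

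Zfp36, which encodes the mRNA decay factor tristetraprolin, was higher in cDC2s of both kinds in spleen. Zfp36 was measured at 3744, 3688 and 4206.5 CPM in spleen T-bet+ cDC2s, 3735, 2942.5 and 3508 CPM in T-bet- cDC2s and 1452, 1600.3 and 1731 CPM in cDC1s, and the MLN values were 3965 and 3069.7 CPM in T-bet+ cDC2s, 5324 and 5706 CPM in T-bet- cDC2s and 2454, 2215 and 3809 CPM in cDC1s. The spleen cDC2s lay above the cDC1s without overlap (log2 fold change 1.31 with an SE of 0.15, adjusted p = 0.000249 for T-bet+ and log2 fold change 1.13 with an SE of 0.14, adjusted p = 0.000687 for T-bet- cDC2s), and both calls held in all 16 alternative settings. In MLN the T-bet- cDC2s, and not the T-bet+ cDC2s, were clear of the cDC1s, at a log2 difference of 1.02 (adjusted p = 0.125, SE 0.33). Zfp36l1 was measured at 212, 192 and 264 CPM in spleen T-bet+ cDC2s, 163, 296 and 117 CPM in T-bet- cDC2s and 84.9, 87.3 and 121 CPM in cDC1s. Its relative Zfp36l1 rose in T-bet+ cDC2s over cDC1s (log2 fold change 1.22 with an SE of 0.33, adjusted p = 0.0309). The MLN values were 207 and 289.9 CPM in T-bet+ cDC2s, 359.5 and 598 CPM in T-bet- cDC2s and 194, 326 and 376 CPM in cDC1s, with overlap.

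Ppp1r15a, which encodes GADD34, the phosphatase subunit that restores translation after stress, was graded across the spleen subsets. Ppp1r15a was measured at 1146, 1082 and 1022 CPM in spleen T-bet+ cDC2s, 435, 688 and 599 CPM in T-bet- cDC2s and 377, 313 and 269.6 CPM in cDC1s. None of the 3 subsets overlapped another. It rose in T-bet+ cDC2s over cDC1s (log2 fold change 1.78 with an SE of 0.22, adjusted p = 0.000471), in T-bet- cDC2s over cDC1s (log2 fold change 0.88 with an SE of 0.22, adjusted p = 0.0218) and in T-bet+ over T-bet- cDC2s (log2 fold change 0.91 with an SE of 0.22, adjusted p = 0.0413). The last call did not hold without the lower class, at 0.84 (adjusted p = 0.0623). In MLN, Ppp1r15a was at 655 and 746 CPM in T-bet+ cDC2s, 662 and 1237 CPM in T-bet- cDC2s and 386, 649 and 882 CPM in cDC1s, with overlap. The difference between T-bet+ cDC2s and cDC1s was larger in spleen than in MLN by 1.67 on the log2 scale, which had the lowest unadjusted p of the 36 genes for such a difference between tissues and did not pass (adjusted p = 0.236).

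Gadd45b was measured at 559.9, 564 and 594 CPM in spleen T-bet+ cDC2s, 209.8, 339 and 306.5 CPM in T-bet- cDC2s and 209, 120.5 and 199 CPM in cDC1s. Gadd45b, which binds the MAP kinase kinase kinase MEKK4 and is an NF-kB target, was higher in each T-bet+ library than in any cDC1 library of spleen (log2 fold change 1.73 with an SE of 0.26, adjusted p = 0.00142). Its MLN values were 533 and 1194 CPM in T-bet+ cDC2s, 732 and 1268 CPM in T-bet- cDC2s and 352, 1159 and 1049 CPM in cDC1s. Btg2 rose modestly in spleen T-bet+ cDC2s over cDC1s (log2 fold change 0.86 with an SE of 0.19, adjusted p = 0.0127), and its relative Btg1 ranged over 165.5 to 2863.5 CPM and passed in no comparison of subsets.

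Nfkb1, which encodes p105 and its product p50, was the NF-kB subunit that set cDC2s apart from cDC1s in both tissues. Nfkb1 was measured at 507, 636.5 and 642 CPM in spleen T-bet+ cDC2s, 468, 448 and 466 CPM in T-bet- cDC2s and 106, 89.7 and 123 CPM in cDC1s, and the MLN values were 384 and 165 CPM in T-bet+ cDC2s, 167 and 183 CPM in T-bet- cDC2s and 84.9, 64.1 and 52.1 CPM in cDC1s. Every cDC2 library was above every cDC1 library of its tissue, and in MLN replicate 1 of T-bet+ cDC2s was above all other libraries. The spleen log2 difference from cDC1s was 2.52 (adjusted p = 1.73e-05, SE 0.18) for T-bet+ and 2.16 (adjusted p = 4.67e-05, SE 0.18) for T-bet- cDC2s, and both calls held in all 16 alternative settings. In MLN it was 2.05 (adjusted p = 0.0238, SE 0.40) for T-bet+ cDC2s, and 1.43 (adjusted p = 0.0801, SE 0.39) for T-bet- cDC2s, which did not pass. Rel, the subunit c-REL, ranged over 198 to 657 CPM and Nfkb2, which encodes p100 and p52, over 76.9 to 479 CPM, and neither passed between subsets.

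Among the inhibitors and regulators, Nfkbid, Tnfaip3 and Nfkbiz were higher in a spleen cDC2 subset. Nfkbid was measured at 401, 389 and 335 CPM in spleen T-bet+ cDC2s, 95.1, 172 and 236 CPM in T-bet- cDC2s and 115, 111.5 and 62.0 CPM in cDC1s, and the MLN values were 225 and 142 CPM in T-bet+ cDC2s, 71.2 and 221 CPM in T-bet- cDC2s and 119.6, 80.1 and 122 CPM in cDC1s. Nfkbid, a nuclear IkB protein, was higher in T-bet+ cDC2s than in cDC1s without overlap in both tissues and passed in spleen (log2 fold change 1.98 with an SE of 0.36, adjusted p = 0.00416). Tnfaip3 was measured at 456, 650.3 and 529.5 CPM in spleen T-bet+ cDC2s, 385, 364 and 780.3 CPM in T-bet- cDC2s and 168.5, 331 and 184 CPM in cDC1s. Tnfaip3, which encodes the ubiquitin-editing enzyme A20, was higher in each cDC2 library of spleen than in any cDC1 library, and it rose in T-bet+ cDC2s over cDC1s (log2 fold change 1.28 with an SE of 0.36, adjusted p = 0.0352). The MLN values were 249.9 and 457 CPM in T-bet+ cDC2s, 611 and 782 CPM in T-bet- cDC2s and 183, 505 and 635 CPM in cDC1s, with overlap.

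Nfkbiz was measured at 191, 206 and 153 CPM in spleen T-bet+ cDC2s, 134, 186 and 487 CPM in T-bet- cDC2s and 63.0, 77.0 and 20.6 CPM in cDC1s, and the MLN values were 70.5 and 66.1 CPM in T-bet+ cDC2s, 60.8 and 125.5 CPM in T-bet- cDC2s and 38.0, 28.3 and 54.9 CPM in cDC1s. Nfkbiz, which encodes the nuclear IkB protein IkB-zeta, was higher in cDC2s of both kinds than in cDC1s without overlap in both tissues, and within spleen T-bet- cDC2s the higher-class library was the highest by far. It passed in spleen T-bet- cDC2s (log2 fold change 2.35 with an SE of 0.57, adjusted p = 0.0213), and without the lower class it also passed in T-bet+ cDC2s, at 1.39 (adjusted p = 0.00133), and was lower in T-bet+ cDC2s than in T-bet- cDC2s, at -1.42 (adjusted p = 0.0111). Nfkbia, which encodes IkB-alpha, the inhibitor that NF-kB itself induces, ranged over 302 to 1719.6 CPM and did not pass between subsets.

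**Figure D2:**
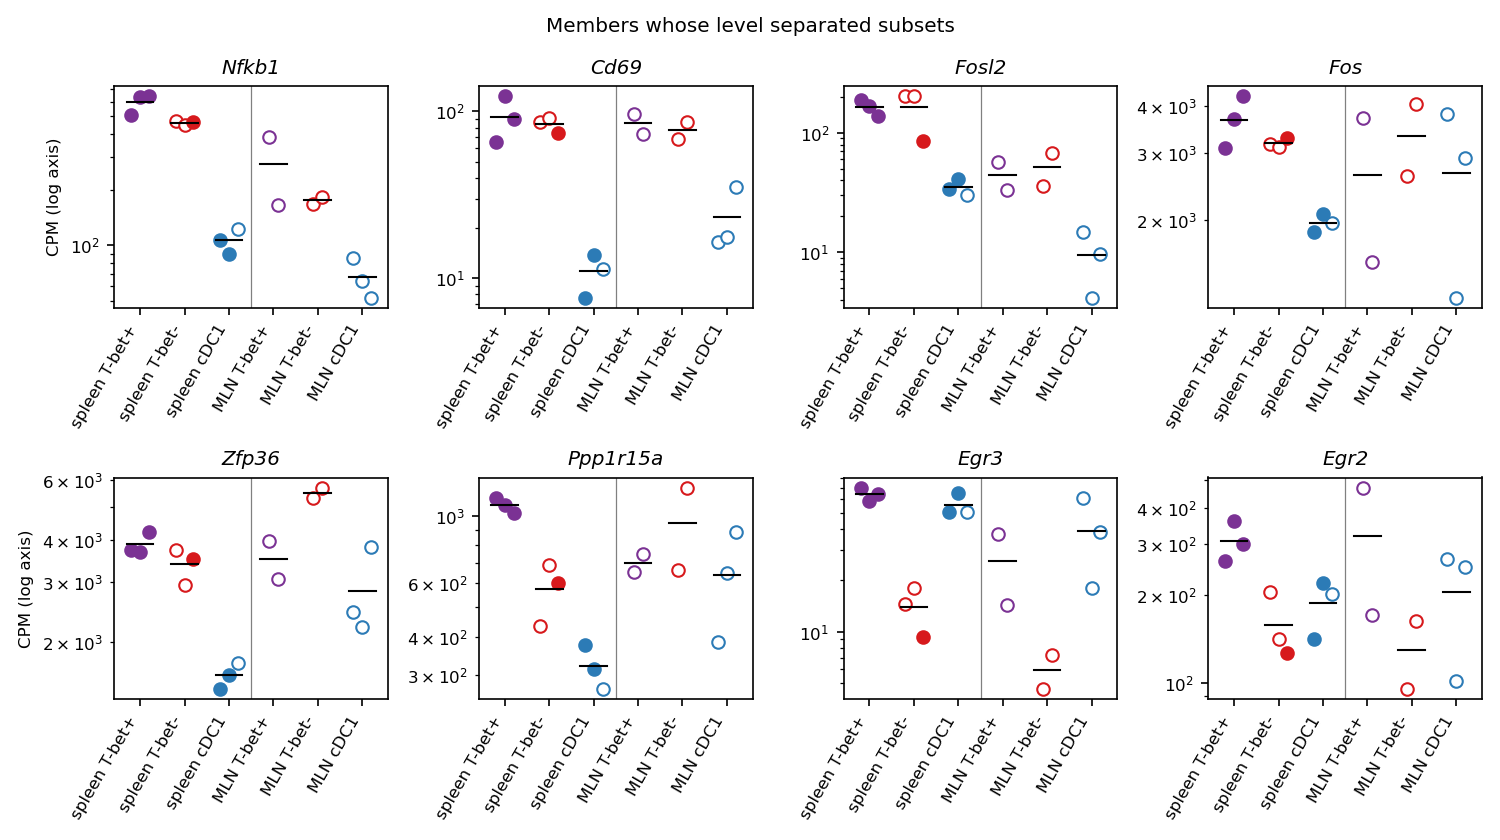
Levels in CPM (log axis) of 8 genes in each RNA library, by tissue and subset, with a line at the mean of each group. Filled points are libraries of the higher class and open points those of the lower class. Nfkb1, Cd69 and Fosl2 are higher in cDC2s than in cDC1s of the same tissue in every library, Fos, Zfp36 and Ppp1r15a separate cDC2s from cDC1s in spleen, and Egr3 and Egr2 are lower in T-bet- cDC2s than in T-bet+ ones. Egr2 passed in neither tissue, and Egr3 passed in spleen alone.

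Whether subset differences repeated across tissues was asked first by counting genes whose libraries did not overlap in the same direction in both tissues, among 35 of the genes and 13770 genes in all. For T-bet+ cDC2s over cDC1s, 7 did (Cd69, Dusp5, Fosl2, Maff, Nfkb1, Nfkbid and Nfkbiz), against a background of 11.6% of all genes. For T-bet- cDC2s over cDC1s, 6 did (Cd69, Dusp6, Fosl2, Nfkb1, Nfkbiz and Zfp36), against 11%. Egr3 alone was lower in both tissues, a share below the background of 8.2%. For T-bet+ over T-bet- cDC2s, 2 did (Egr2 and Egr3), a share near the background of 5.77%. The list as a whole was thus not set apart in that comparison. None of the 35 genes separated in opposite directions in the 2 tissues in any of these comparisons. The background was low too, at 0.683% of all genes for T-bet+ cDC2s against cDC1s and 0.428% for T-bet- cDC2s against cDC1s. It was 1.17% for T-bet+ against T-bet- cDC2s, so the absence does not set these genes apart. The genes that differed between cDC2s and cDC1s in both tissues included a subunit of NF-kB, a FOS family member and Cd69, and not Jun, Junb, Egr1 or Dusp1.

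Whether these subset differences themselves differed between tissues was then tested directly, in a fit of all 16 libraries. By edgeR's quasi-likelihood test, 0 of 36 genes passed for T-bet+ against T-bet- cDC2s, for T-bet+ cDC2s against cDC1s and for T-bet- cDC2s against cDC1s, against a background of 0.00595%, 0.0893% and 0.0357% of 16795 genes. At an unadjusted p under 0.05 the counts were 2, 8 and 3, beside 5.04%, 8.48% and 5.9% of all genes, and DESeq2 gave 0 in each. In the main fit, no subset difference of a single gene of the 36 was shown to differ between the tissues after adjustment. Almost no gene of any kind passed, so this does not set the list apart. The unadjusted count of 8 was above the share of all genes. Without the filter on low counts some of the 36 genes passed, as given with the alternatives.

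Other genes followed single libraries. The libraries of the higher class were compared with those of the lower class within spleen T-bet- cDC2s (1 against 2) and within spleen cDC1s (2 against 1), as a description with no test. In both subsets 11 of the 36 genes were more than 2-fold higher in the higher class, against a background of 8.78% of 14377 genes. These were Ier5, Jund, Dusp1, Jun, Btg1, Dusp4, Egr1, Ier2, Junb, Nfkbiz and Nfkb2, with ratios from 2.26 to 22.2.

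Dusp1, Jun and Jund are given in full as the clearest cases, chosen after their values were seen. Dusp1 was measured at 3441, 2177 and 2243 CPM in spleen T-bet+ cDC2s, 143, 303 and 2624 CPM in T-bet- cDC2s and 1159, 1011 and 86.4 CPM in cDC1s. The T-bet- library of the higher class lay among the T-bet+ libraries, and the other 2 T-bet- libraries and the third cDC1 library were far below them. In MLN, Dusp1, the phosphatase of p38 and JNK, was at 233 and 188 CPM in T-bet+ cDC2s, 123 and 452 CPM in T-bet- cDC2s and 143, 145 and 331 CPM in cDC1s, with overlap. Jun was measured at 1252, 1339 and 1506 CPM in spleen T-bet+ cDC2s, 47.3, 144 and 1286 CPM in T-bet- cDC2s and 503, 507 and 66.5 CPM in cDC1s. Jund was measured at 131, 96.0 and 105 CPM in spleen T-bet+ cDC2s, 6.54, 28.7 and 151 CPM in T-bet- cDC2s and 152.5, 129.9 and 6.37 CPM in cDC1s. For Jun the same 3 libraries were low, and for Jund the higher-class libraries of all 3 subsets lay between 96.0 and 152.5 CPM. The log2 difference of Jund between T-bet+ cDC2s and cDC1s was 0.21 (adjusted p = 0.932, SE 1.10).

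**Figure D3:**
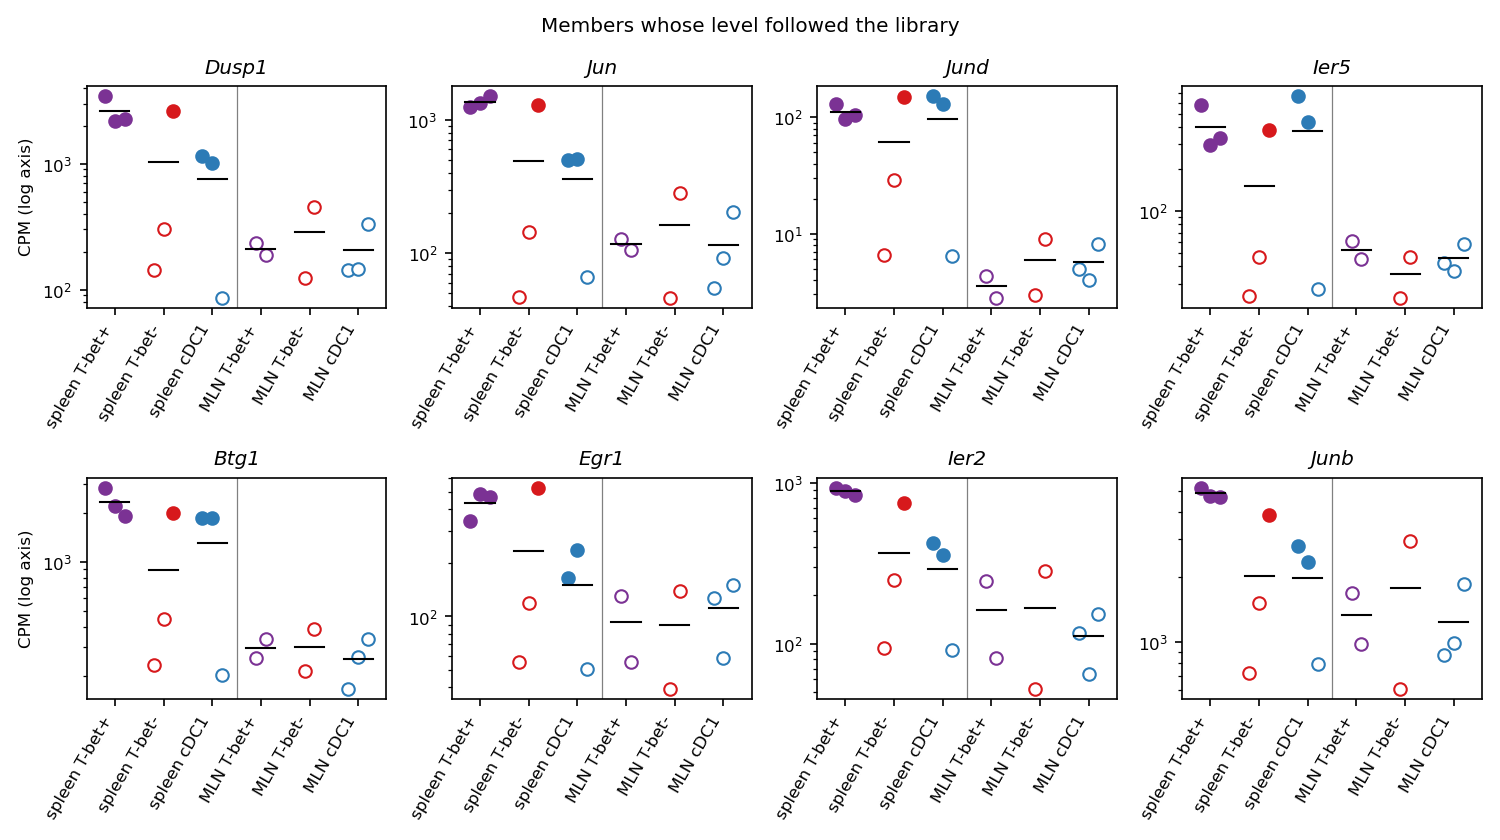
Levels in CPM (log axis) of 8 genes that were more than 2-fold higher in the higher class within both T-bet- cDC2s and cDC1s of spleen, in each RNA library, with a line at the mean of each group. Filled points are libraries of the higher class and open points those of the lower class, and the 2 kinds do not overlap within the T-bet- cDC2s or the cDC1s of spleen in any panel.

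The 11 genes had a high GC content in the most GC-rich 100-base stretch of their transcripts (74% to 86%, median 79%), and the other 25 genes had 52% to 87% with a median of 74%. Across the 36 genes, the Spearman rho of that GC content with the mean log2 ratio of the higher over the lower class was 0.72. It is a description, since the points share libraries and the classes were set by this same GC measure over other genes. A rise of the ratio with GC therefore follows in part from how the classes were set. Mcl1, at 87%, had a mean log2 ratio of 1.16, and Cd69, at 52%, one of -0.18. The part of GC content, and that of a difference in activation between the pools, was not tested.

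**Figure D4:**
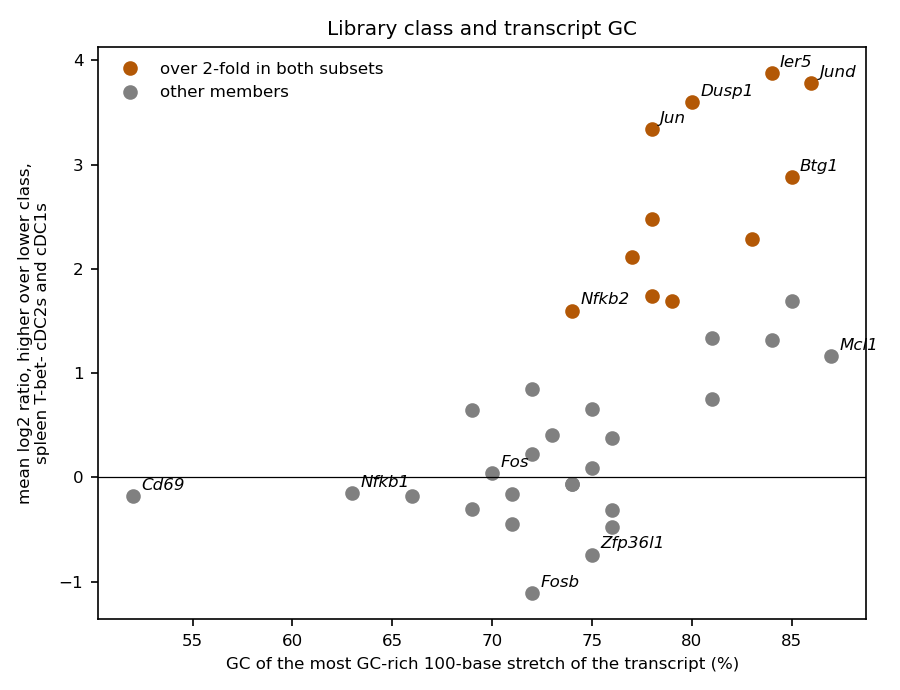
Mean log2 ratio of the higher over the lower class within spleen T-bet- cDC2s and cDC1s (vertical axis) against the GC content in percent of the most GC-rich 100-base stretch of the transcript (horizontal axis), 1 point for each of the 36 genes. Orange points are the 11 genes over 2-fold in both subsets, all at 74% or above, and genes such as Cd69 and Nfkb1 at lower GC lie near 0. The classes were set by the same GC measure over other genes.

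Leaving out the 3 spleen libraries of the lower class, an alternative chosen after the data were seen, made 24 of 36 genes rise and 1 fall between T-bet+ cDC2s and cDC1s, against a background of 10.5% and 9.89% of 16513 genes in the same fit, and 17 rise and 1 fall between T-bet- cDC2s and cDC1s, against 6.61% and 3.76%. Between T-bet+ and T-bet- cDC2s 1 rose and 2 fell, against 1.62% and 2.53%. The T-bet- cDC2s were then a single library, assumed to vary like the other groups. The 10 genes gained between T-bet+ cDC2s and cDC1s were Fosb, Jun, Junb, Egr1, Egr2, Ier2, Dusp1, Nfkb2 and Nfkbiz, which rose, and Dusp4, which fell. The 9 gained between T-bet- cDC2s and cDC1s all rose (Jun, Egr1, Ier2, Dusp1, Dusp6, Nfkb2, Nfkbia, Nfkbid and Tnfaip3), and Fosl1 and Dusp4 were lost. Between the cDC2 subsets Dusp6 and Nfkbiz were gained and Ppp1r15a was lost. Jun was then higher in T-bet+ cDC2s than in cDC1s by 1.44 (adjusted p = 0.000192) on the log2 scale, Dusp1 by 1.27 (adjusted p = 0.00267) and Ier2 by 1.18 (adjusted p = 0.000826). In T-bet- cDC2s over cDC1s Jun differed by 1.36 (adjusted p = 0.00182), Dusp1 by 1.29 (adjusted p = 0.0143) and Egr1 by 1.41 (adjusted p = 0.0129). Between the cDC2 subsets the differences were 0.08 (adjusted p = 0.891) for Jun, -0.01 (adjusted p = 0.994) for Dusp1 and -0.30 (adjusted p = 0.639) for Egr1, and none passed. Among libraries of the same class, Jun and Dusp1 were thus higher in both cDC2 subsets of spleen than in cDC1s.

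Between tissues, within 1 subset, Fosl2 and Maff were higher in spleen T-bet+ cDC2s than in MLN T-bet+ cDC2s, and 0 genes were lower (2 and 0 of 36, against a background of 1.3% and 3.79% of 16795 genes). In cDC1s, 6 were higher in spleen (Fosl1, Jund, Dusp4, Dusp2, Fosl2 and Dusp6, against 3.93%) and 5 were higher in MLN (Gadd45b, Zfp36l1, Cd69, Ppp1r15a and Zfp36, against 7.75%). In T-bet- cDC2s, Nfkb1 was higher in spleen (1 gene, against 1.58%) and Gadd45b was higher in MLN (1 gene, against 4.36%). The log2 differences ranged from 4.17 for Fosl1 in cDC1s to -2.29 for Gadd45b in cDC1s. Of the cDC1 calls, that of Cd69 held in 2 and that of Ppp1r15a in 6 of 19 alternative settings, and the 11 calls fell to 1 without replicate 1 or 2 of spleen cDC1s or replicate 3 of MLN cDC1s. Jund was at 152.5, 129.9 and 6.37 CPM in spleen cDC1s and 5.00, 3.96 and 8.10 CPM in MLN cDC1s, so that the spleen library of the lower class lay within the MLN range. All MLN libraries were of the lower class, so for T-bet+ cDC2s the tissue and the class cannot be told apart, the other subsets hold libraries of both classes in spleen alone, and tissue cannot be told apart from the preparation of the organs.

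In MLN, libraries of 1 subset also differed in maturation markers. Ccr7, the chemokine receptor of migrating mature dendritic cells, was at 2152 and 7945 CPM in T-bet+ cDC2s, 8821 and 9853 CPM in T-bet- cDC2s, and 2582, 9277 and 8903 CPM in cDC1s. Gadd45b moved with it within cDC1s, as given above, and so did Nfkb2, at 138, 471 and 479 CPM in the same cDC1 libraries. In both cDC1s and T-bet+ cDC2s, replicate 1 was the low library for Ccr7 and Gadd45b. Of the other mature dendritic cell markers read, Fscn1, Ccl22, Cacnb3 and Socs2 had the same low library in both subsets. Cd83 did not follow Ccr7 within cDC1s, at 2866, 1761 and 3252 CPM. It differed little within T-bet+ cDC2s, at 3764 and 4033 CPM. The part of maturation in the MLN results was not tested.

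The other genes of these pathways were read from lists of symbols that hold none of the 36 genes. Of 36 other genes of the NF-kB pathway, 8 rose and 1 fell in spleen T-bet+ cDC2s over cDC1s, 8 rose and 1 fell in T-bet- cDC2s over cDC1s, and 1 rose and 2 fell in T-bet+ over T-bet- cDC2s. They included the cytokine Il1b (log2 fold change over cDC1s 1.52 for T-bet+ and 1.97 for T-bet- cDC2s), the inhibitor Nfkbie (1.36 and 1.87) and the adaptor Traf1 (1.24 and 1.24). Tnip3, a partner of A20, was lower in T-bet+ cDC2s than in T-bet- cDC2s by a log2 fold change of -3.82. In MLN, 1 of the 36 rose in T-bet+ cDC2s and 1 fell in T-bet- cDC2s, each over cDC1s, and 0 passed between the cDC2 subsets (4 at an unadjusted p under 0.05, and 1 by DESeq2).

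Of 30 other AP-1, ATF, MAF and SRF genes, 3 rose and 1 fell in spleen T-bet+ cDC2s over cDC1s, 5 rose and 1 fell in T-bet- cDC2s over cDC1s, and 1 fell between T-bet+ and T-bet- cDC2s, shares that can be read against the background of all genes given for these comparisons (9.98% and 8.2%, 9.65% and 6.2%, and 1.95% and 3.44%), as can those of the other lists. Elk3, an SRF partner of the ETS family, was higher in both cDC2 subsets (3.40 and 2.80 in spleen, 1.66 and 2.23 in MLN). In MLN, over cDC1s, 2 of the 30 rose in T-bet+ and 3 rose in T-bet- cDC2s, and 0 passed between the cDC2 subsets (4 at an unadjusted p under 0.05, and 2 by DESeq2).

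Of 37 other immediate early and feedback genes tested in spleen, 13 rose and 5 fell in T-bet+ cDC2s over cDC1s, 7 rose and 3 fell in T-bet- cDC2s over cDC1s, and 2 rose and 1 fell in T-bet+ over T-bet- cDC2s. Ptgs2, which encodes cyclooxygenase-2, differed most (log2 fold change 5.71 for T-bet+ and 5.52 for T-bet- cDC2s), the Krüppel-like factor Klf4 differed by 3.13 and 2.86, and Arc was lower in both (-4.60 and -4.16). Nr4a2, an orphan nuclear receptor, was higher in T-bet+ cDC2s than in T-bet- cDC2s by 2.37. In MLN, of 38 tested, 1 rose and 2 fell in T-bet+ and 2 rose in T-bet- cDC2s over cDC1s, and 0 passed between the cDC2 subsets (3 at an unadjusted p under 0.05, and 1 by DESeq2). The 12 heat shock genes, known to respond to handling of cells, gave 0 calls by edgeR in each of the 6 comparisons, at most 2 at an unadjusted p under 0.05 and at most 2 by DESeq2. Their summed level was 4301 to 9403 CPM in spleen T-bet+ cDC2s, 5954 to 9303 CPM in T-bet- cDC2s and 5930 to 8865 CPM in cDC1s. Single genes were less even between replicates. Hspa1a was at 222.6, 617 and 1579 CPM in spleen T-bet- cDC2s and 617, 1008 and 382 CPM in spleen cDC1s. Hspa8 was at 2620, 3308 and 2233 CPM and at 1887, 2487 and 2447 CPM in the same libraries. The part of handling in the results was not tested.

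ATAC-seq of spleen cells showed where chromatin at these loci differed. The deposited windows are 150 bases long and centred on peak summits, and 337 windows in 118 peaks had a member of the list as the closest gene within 50000 bases. They covered 29 of the 36 genes. Peaks that were equally close to another gene were kept, among them those of Zfp36l1 and Nfkb2 and some of Dusp1, Dusp5 and Ier3. Jun, Junb, Csrnp1, Dusp6, Zfp36, Ppp1r15a and Nfkbid had no window by this rule and were not analysed. Windows of 1 peak overlap or adjoin and are not independent.

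Of 327 windows tested, 98 were more open and 3 less open in T-bet+ cDC2s than in cDC1s, which is 30.0% and 0.917% of them, against a background of 11% and 12% of 166547 windows (edgeR's quasi-likelihood test, adjusted p under 0.01 and absolute log2 fold change over 0.5). In T-bet- cDC2s, 51 were more open and 11 less open than in cDC1s (15.6% and 3.36%, against 7.31% and 10.6%). Between T-bet+ and T-bet- cDC2s, 18 were more open and 1 less open (5.5% and 0.306%, against 3.92% and 2.35%). The windows that opened lay at 25, 21 and 8 of the genes in these comparisons. The share of all genes with such a window was not computed, and a gene with many windows is more likely to hold 1. These counts of genes are given as a description. The median log2 fold change was 0.46, 0.34 and 0.16, beside -0.0, 0.01 and -0.01 over all windows. Of 158 windows tested in peaks within 2000 bases of an annotated transcript start, 43, 30 and 3 were more open and 2, 4 and 0 less open. The shares over all windows near starts were not computed, so these counts have no background of their own kind and are given as a description.

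The window with the largest difference at each of 6 genes is shown by its sequence, read from RefSeq's GRCm38.p6 on the plus strand, since these are places where the chromatin of cDC2s and cDC1s differed. They are the 6 genes with the largest such differences among genes with a RefSeq promoter entry and a window outside exons, which leaves out Nfkb1. The windows at Nfkbia, Tnfaip3 and Atf3, and that at Egr3 described after them, were chosen after their values were seen. Capitals mark a kappa B consensus (Fos and Fosl2) or an AP-1 site, TGANTCA (Nfkbia and Tnfaip3), and windows with no capitals hold neither.
Dusp1, chr17:26551264-26551413: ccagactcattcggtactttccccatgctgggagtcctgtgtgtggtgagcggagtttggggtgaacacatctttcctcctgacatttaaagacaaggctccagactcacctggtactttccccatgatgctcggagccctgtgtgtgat
Fosl2, chr5:32164900-32165049: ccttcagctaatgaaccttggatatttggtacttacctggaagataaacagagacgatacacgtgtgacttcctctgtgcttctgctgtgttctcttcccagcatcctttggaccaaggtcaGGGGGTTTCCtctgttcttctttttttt
Fos, chr12:85497988-85498137: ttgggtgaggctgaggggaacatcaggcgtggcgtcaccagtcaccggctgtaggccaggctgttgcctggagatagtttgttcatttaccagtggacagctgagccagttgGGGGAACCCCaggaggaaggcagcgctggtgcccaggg
Nfkbia, chr12:55466993-55467142: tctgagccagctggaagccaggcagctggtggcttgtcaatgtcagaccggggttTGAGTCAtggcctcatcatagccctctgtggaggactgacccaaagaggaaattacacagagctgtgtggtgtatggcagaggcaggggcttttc
Tnfaip3, chr10:19047552-19047701: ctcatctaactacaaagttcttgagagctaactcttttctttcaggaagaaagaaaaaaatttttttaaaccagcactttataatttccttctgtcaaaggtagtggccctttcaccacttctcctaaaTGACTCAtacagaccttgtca
Atf3, chr1:191217036-191217185: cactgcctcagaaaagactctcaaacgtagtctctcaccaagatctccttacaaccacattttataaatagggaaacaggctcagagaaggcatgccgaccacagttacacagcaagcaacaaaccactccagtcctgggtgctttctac

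The Dusp1 window lay 42819 bases upstream of the start of the principal Dusp1 transcript, in an intron of a longer annotated one. Its values were 9.30 and 6.01 CPM in T-bet+ cDC2s, 1.47 and 2.41 CPM in T-bet- cDC2s and 0.471 and 0.515 CPM in cDC1s. The T-bet+ libraries were above both T-bet- libraries, which were above both cDC1 libraries. It was more open in T-bet+ cDC2s than in cDC1s (log2 fold change 3.91 with an SE of 0.48, adjusted p = 2.6e-10) and than in T-bet- cDC2s (log2 fold change 1.95 with an SE of 0.37, adjusted p = 6.85e-05). Its neighbour, which overlaps it, had the largest difference between the cDC2 subsets, at 2.48 (adjusted p = 6.37e-06, SE 0.41). Dusp1 RNA differed by 1.36 (adjusted p = 0.558, SE 1.07) between the cDC2 subsets, and by -0.01 (adjusted p = 0.994) in the libraries of the higher class.

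The Fosl2 window lay 29173 bases downstream of the Fosl2 start, between genes. Its values were 4.11 and 3.32 CPM in T-bet+ cDC2s, 0.856 and 1.00 CPM in T-bet- cDC2s and 0.588 and 0.258 CPM in cDC1s. It was clear of both other subsets in T-bet+ cDC2s (log2 fold change 3.06 with an SE of 0.55, adjusted p = 4.98e-06 against cDC1s and log2 fold change 1.97 with an SE of 0.46, adjusted p = 0.00169 against T-bet- cDC2s), while Fosl2 RNA differed by 0.01 (adjusted p = 0.995, SE 0.33) between the cDC2 subsets of spleen.

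The Fos window, 24172 bases downstream of the Fos start, had the reverse order of the cDC2 subsets. Its values were 3.14 and 4.35 CPM in T-bet+ cDC2s, 5.62 and 9.42 CPM in T-bet- cDC2s and 0.941 and 0.515 CPM in cDC1s. It was more open in T-bet- cDC2s than in cDC1s (log2 fold change 3.34 with an SE of 0.44, adjusted p = 4.77e-09), and T-bet+ cDC2s lay between, at -1.01 (adjusted p = 0.031, SE 0.33) against T-bet- cDC2s, which did not pass the threshold of 0.01.

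At the inhibitors, the Nfkbia window, 25580 bases downstream of the start, was at 7.68 and 9.12 CPM in T-bet+ cDC2s, 6.48 and 8.82 CPM in T-bet- cDC2s and 0.706 and 1.55 CPM in cDC1s, and the Tnfaip3 window, 32216 bases upstream of the start, was at 10.4 and 10.2 CPM in T-bet+ cDC2s, 6.97 and 6.01 CPM in T-bet- cDC2s and 1.18 and 2.19 CPM in cDC1s. Both cDC2 subsets were above cDC1s without overlap. The log2 fold changes over cDC1s were 2.90 (adjusted p = 3.53e-09, SE 0.38) and 2.77 (adjusted p = 2.71e-08, SE 0.39) for Nfkbia, and 2.61 (adjusted p = 3.25e-09, SE 0.34) and 1.94 (adjusted p = 1.47e-05, SE 0.36) for Tnfaip3, in T-bet+ and T-bet- cDC2s in that order. The Atf3 window, 929 bases downstream of its start, was open in cDC2s of both kinds (7.25 and 5.70 CPM in T-bet+ cDC2s, 8.19 and 5.71 CPM in T-bet- cDC2s and 1.18 and 1.29 CPM in cDC1s), with log2 fold changes over cDC1s of 2.37 (adjusted p = 8.19e-07, SE 0.39) and 2.47 (adjusted p = 4.81e-07, SE 0.39).

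At Nfkb1, 13 windows were more open in T-bet+ cDC2s than in cDC1s and 5 were more open and 2 less open in T-bet- cDC2s than in cDC1s, among 39 windows in 19 peaks. The largest difference of all member windows was there, 20823 bases downstream of the start, with 3.25 and 3.32 CPM in T-bet+ cDC2s, 5.62 and 5.71 CPM in T-bet- cDC2s and 0.118 and 0.386 CPM in cDC1s. It was more open in T-bet- cDC2s than in cDC1s (log2 fold change 4.44 with an SE of 0.55, adjusted p = 1.02e-09) and in T-bet+ cDC2s than in cDC1s (log2 fold change 3.66 with an SE of 0.60, adjusted p = 6.73e-07). Its overlapping neighbour was also more open in T-bet- cDC2s than in cDC1s, by 3.16 (adjusted p = 8.43e-08, SE 0.46). Between the cDC2 subsets, 7 Nfkb1 windows were more open in T-bet+ cDC2s, by up to 1.60 (adjusted p = 0.00577, SE 0.42), while Nfkb1 RNA differed by 0.36 (adjusted p = 0.304, SE 0.17) between these subsets.

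At Egr3, 2 windows were more open in T-bet+ cDC2s than in T-bet- cDC2s, 3 were less open in T-bet- cDC2s than in cDC1s, and 2 were more open and 1 less open in T-bet+ cDC2s than in cDC1s. The clearest, 7867 bases upstream of the start, was at 13.5 and 11.3 CPM in T-bet+ cDC2s, 4.40 and 4.21 CPM in T-bet- cDC2s and 3.88 and 4.25 CPM in cDC1s. T-bet+ cDC2s were above both other subsets, which overlapped, and the log2 difference from T-bet- cDC2s was 1.52 (adjusted p = 4.9e-05, SE 0.28). Ppp1r15a, the other gene that passed between the cDC2 subsets in RNA, had no window. The other windows more open in T-bet+ cDC2s than in T-bet- cDC2s lay at Nfkb1 (7), at Dusp1, Btg2 and Nfkbiz (2 each) and at Fosl2, Maff and Egr1 (1 each), none of which passed between these subsets in spleen RNA, and the 1 window that was less open lay at Dusp5.

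**Figure D5:**
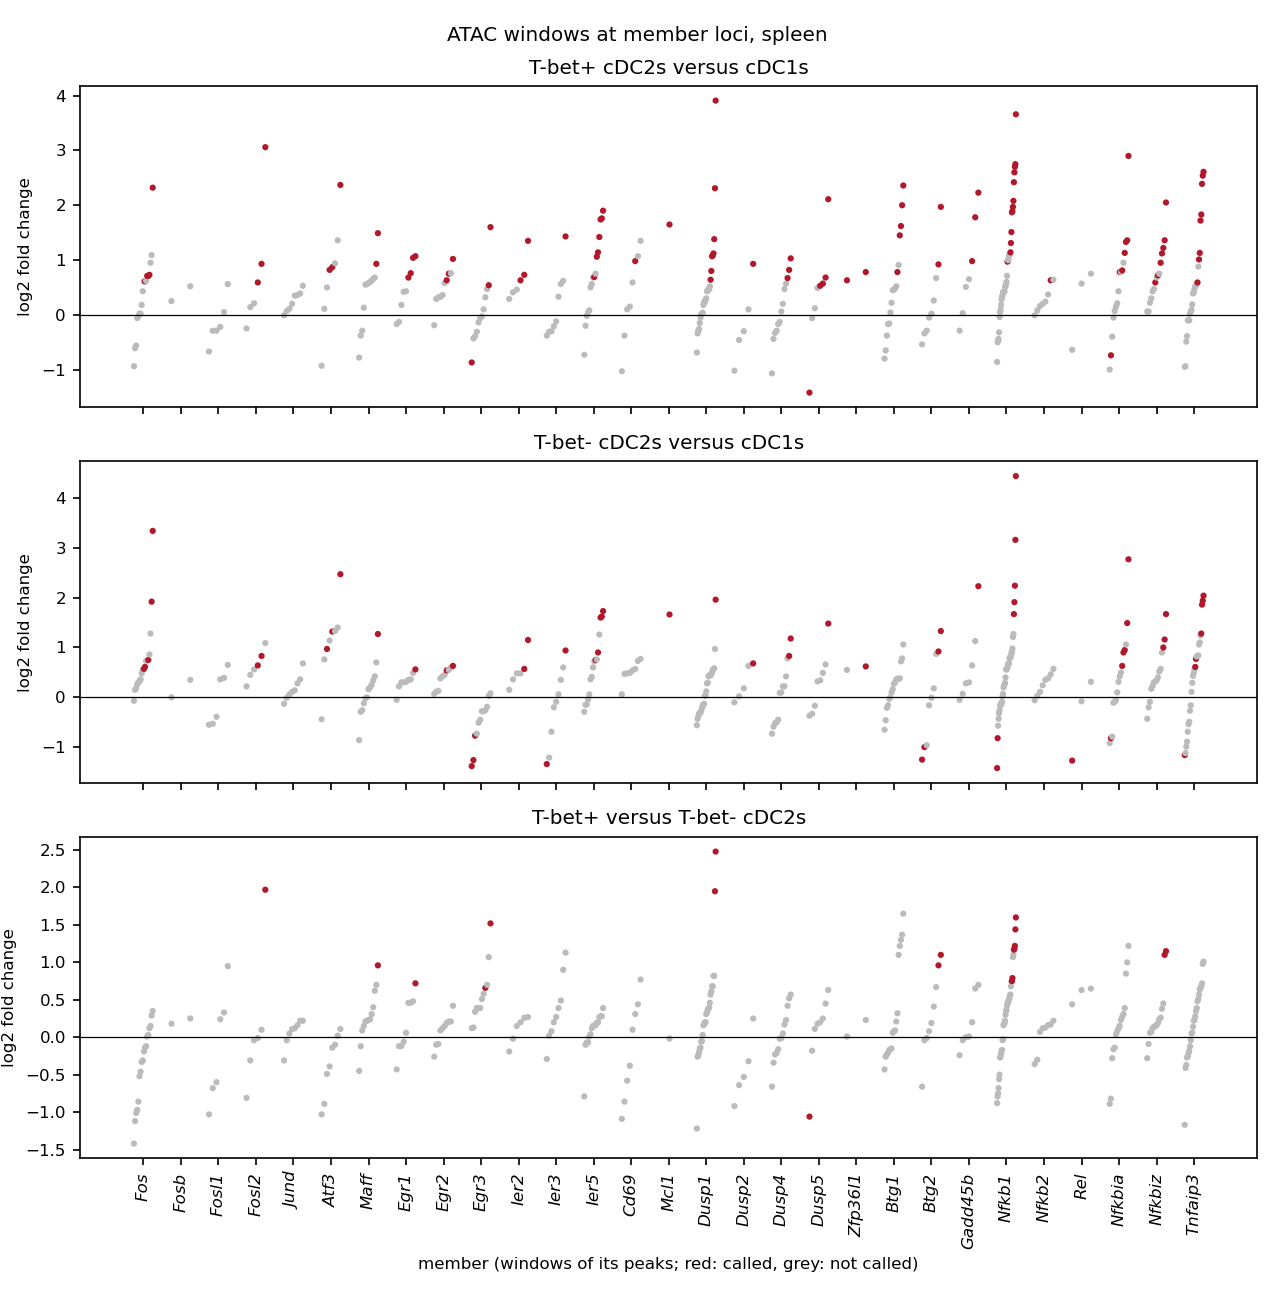
Log2 fold change of each ATAC-seq window of spleen cells (points) at the loci of 29 genes (horizontal axis), for T-bet+ cDC2s over cDC1s (top), T-bet- cDC2s over cDC1s (middle) and T-bet+ over T-bet- cDC2s (bottom). Red points passed the threshold, and they lie above 0 at most genes in the top panel, with Dusp1, Nfkb1 and Fosl2 reaching furthest.

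The 250 bases before the start of Fos and of Nfkbia, read from RefSeq's GRCm38.p6 on the strand of the gene, are shown as examples of a kappa B consensus close to the start of an AP-1 gene and of an NF-kB inhibitor. Capitals mark the consensus, which ends 204 bases before the start of Fos and 19 bases before that of Nfkbia.
Fos, chr12:85473640-85473889, plus strand: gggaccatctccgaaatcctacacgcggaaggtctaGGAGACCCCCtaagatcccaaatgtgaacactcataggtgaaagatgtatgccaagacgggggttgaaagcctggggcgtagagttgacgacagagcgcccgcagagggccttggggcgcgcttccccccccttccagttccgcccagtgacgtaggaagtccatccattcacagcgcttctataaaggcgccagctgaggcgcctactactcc
Nfkbia, chr12:55492648-55492897, minus strand: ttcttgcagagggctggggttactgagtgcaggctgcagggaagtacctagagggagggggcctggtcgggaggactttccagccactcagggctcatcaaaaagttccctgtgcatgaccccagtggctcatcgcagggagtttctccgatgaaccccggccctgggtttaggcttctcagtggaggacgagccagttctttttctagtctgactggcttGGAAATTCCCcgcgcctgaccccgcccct

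RefSeq promoter entries, of 250 bases before to 50 bases after a start, matched 28 of the 36 genes (all but Nfkbiz, Fosl1, Nfkb1, Ier2, Egr1, Dusp4, Cd69 and Egr3). A kappa B consensus was found on either strand in 10 of the 28 (35.7%, beside 5.14% of 27025 genes), namely Fos, Fosb, Fosl2, Ier3, Maff, Nfkb2, Nfkbia, Nfkbid, Rel and Tnfaip3. A cyclic AMP response element, TGACGTCA, was found in 5 (17.9%, beside 2.03%), an EGR site, GCGNGGGCG, in 8 (28.6%, beside 6.27%) and a CArG box, bound by SRF, in 3 (10.7%, beside 1.81%). An AP-1 site, TGANTCA, was found in 4 (14.3%, beside 8.97%) and a T-box site, GGTGTGA, in 2 (7.14%, beside 4.6%). In the 337 windows the kappa B consensus was found in 25 (7.42%, beside 3.07% of 177956 windows), the AP-1 site in 28 (8.31%, beside 7.9%) and the T-box site in 9 (2.67%, beside 2.4%). These are matches of letters and say nothing of binding.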

How the data were processed

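Bulk RNA-seq counts of 16 libraries and ATAC-seq counts of 6 libraries were analysed as deposited. The RNA-seq counts deposited by the authors are raw reads per gene, made with HISAT2 2.1.0 on mm10, SAMtools 1.9 (unique alignments) and Rsubread in R 3.4.0 with the genes of GENCODE vM17. For the ATAC-seq counts the authors used Bowtie2 2.2.5, called peaks with MACS2 2.1.1.20160309 on all replicates together and deposited counts in 150-base summit windows and in peaks. The score columns that the authors deposited with peaks and summits were not used, being constant for peaks and 1 value per summit over all libraries. These versions are from the submitters' processing notes. RNA was amplified with a SMART-Seq kit before library preparation, so PCR copies are counted as reads. The strand setting of the counting is not given in the sources used here, so reads of overlapping genes on opposite strands may be counted for the wrong gene. The labels give RFP+ cells as T-bet+ and were followed, although 1 sentence of the methods swaps the names. The methods give 2 MLN replicates, and all 3 MLN cDC1 libraries were used. Replicates are separate pools by the labels' numbers.

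In edgeR 4.0.16, features with low counts were removed by filterByExpr and libraries were scaled by TMM. Subsets were compared within a tissue by edgeR's quasi-likelihood test (two-sided, subset as the only term, all libraries of a tissue or assay in 1 fit), with Benjamini-Hochberg adjustment over all genes or windows. RNA results passed at an adjusted p under 0.05. ATAC-seq windows passed at an adjusted p under 0.01 if the log2 fold change also exceeded 0.5 in size, as in the study's methods. A fit of all 16 RNA libraries tested tissue and its interaction with subset. CPM are counts relative to the TMM-scaled library size. The 36 genes and the other lists were chosen with earlier results of these data known. Values in every library are given for genes called in a comparison of subsets (the 12 with the largest absolute log2 fold change where more were called) and for genes whose libraries did not overlap in the same direction in both tissues. For windows, the 3 with the largest called difference per comparison are given. Positions and transcript sequences are from GENCODE M21, in which transcript sequences of 19698 symbols of the count table were found.

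A peak was given to the closest gene body within 50000 bases, also where another gene was equally close, and distances are from the start of the principal transcript. Library class was set by a Spearman rho of 0.1 between the deviation of a library from each gene's mean and the GC content of the most GC-rich 100-base stretch of the gene's longest transcript, over 7470 genes whose mean log2 CPM exceeded 3, the listed genes left out. No replicate pair of RNA libraries held identical counts or differed by as little as sampling noise (chi-square per degree of freedom 31.4 or more). Tests were checked on simulated data, with a single fixed dispersion for all features of an assay and no library classes. Genes that spread more than that would be recovered less often. In the spleen design (13975 genes), 17% of 2-fold and 92% of 4-fold changes were recovered, in the MLN design (14706 genes) 8% and 78%, and for ATAC-seq windows (158419) 12% and 85%. The alternatives were DESeq2 1.42.0, DESeq2's size factors, no filter on low counts, only the libraries compared, a replicate block, library class as a term (spleen), each library left out, and, for ATAC-seq, other thresholds, whole peaks and windows within 2000 bases of a start. Leaving out the 3 spleen libraries of the lower class and crossing replicate numbers in MLN were added after the data were seen. R 4.3.3, limma 3.58.1, Python 3.11.15 and pandas 2.3.3 were used.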

Additional observations from a re-analysis of the deposited data

How the results depend on the processing

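The counts of genes called changed with the processing, while the directions of the results named did not. Of 803 refits of the 48 gene results named, 603 kept the direction and the side of the threshold, 200 kept the direction and no longer passed, and 0 reversed. The 48 results were named because they passed, and the refits reuse most of the same libraries. Reversals were therefore unlikely from the start. For the counts, 165 of 243 alternatives stayed within 1.5 times the value given in the report. The causes of the other 78 were not tested, beyond what each alternative changes. Apart from the subset comparisons of spleen without the lower class, the share of all genes or windows that passed is not given for the alternatives. A change in a count is therefore not read as a result about these genes.

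In spleen, T-bet+ against T-bet- cDC2s gave 2 genes, and 5 by DESeq2, 1 with DESeq2 size factors and 12 without a filter on low counts. T-bet+ cDC2s against cDC1s gave 15 genes, and 26 without the filter, 24 with library class as a term and 25 without the 3 libraries of the lower class. T-bet- cDC2s against cDC1s gave 11 genes, and 17 by DESeq2, 17 without the filter, 7 with only the libraries compared, 19 with the class term and 18 without the lower class. In MLN the counts were 0, 2 and 3 in the same order of comparisons. Without the filter they were 1, 5 and 9, by DESeq2 T-bet+ and T-bet- cDC2s against cDC1s gave 4 and 8, and with only the libraries compared T-bet+ cDC2s against cDC1s gave 0. The differences between tissues in these comparisons, 0 in each, became 3, 7 and 1 without the filter. Between spleen and MLN, 11 genes in cDC1s became 17 without the lower class, 2 in T-bet+ cDC2s became 16 by DESeq2 and 17 without the lower class, and 2 in T-bet- cDC2s became 9 by either.

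For windows, 19 between the cDC2 subsets became 46 at an adjusted p under 0.05 with no fold minimum. They became 3 with only windows within 2000 bases of a start counted, and 10 by DESeq2. The counts near starts are of the same fit and the same calls, so they could only be lower. The 101 between T-bet+ cDC2s and cDC1s became 43 near starts and 63 as whole peaks. The 62 between T-bet- cDC2s and cDC1s became 95, 32 and 41 in the order of the first comparison, and 38 as whole peaks.

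The labels' replicate numbers were not taken to pair the libraries, since deviations of same-numbered libraries correlated at -0.711 to 0.398 in spleen, at -0.15 between the MLN cDC2 subsets, at 0.212 and 0.012 between MLN T-bet- cDC2s and cDC1s, at 0.639 and 0.595 between MLN T-bet+ cDC2s and cDC1s, and within 0.038 of 0 in ATAC-seq. With the replicate block the spleen counts were 1, 11 and 6, the MLN counts 0, 2 and 2, and the window counts 18, 97 and 60. By the numbers in the MLN library names the correlations were -0.012 to 0.639. With these numbers as the replicate block the counts were 1, 9 and 12, and with the MLN T-bet- numbers crossed they were 0, 2 and 4.

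With each library left out in turn, the spleen counts ranged over 1 to 3, 10 to 17 and 8 to 13, and the lowest of the first was reached without any 1 of the T-bet+ replicates. The MLN counts ranged over 0 to 0, 0 to 3 and 0 to 4. T-bet+ cDC2s against cDC1s gave 0 without T-bet- replicate 1 or 2, T-bet+ replicate 1 or cDC1 replicate 2 and 1 without cDC1 replicate 3. T-bet- cDC2s against cDC1s gave 0 without either T-bet- replicate and 1 without cDC1 replicate 2 or 3. The counts between tissues ranged over 1 to 13 in cDC1s, 0 to 9 in T-bet+ cDC2s and 0 to 4 in T-bet- cDC2s, and the 11 of cDC1s fell to 1 without spleen cDC1 replicate 1 or 2 or MLN cDC1 replicate 3. The tissue differences of the subset comparisons stayed at 0. The window counts ranged over 11 to 28, 60 to 110 and 34 to 75, the lowest without T-bet- replicate 1 or 2 or T-bet+ replicate 1 for the first, and without cDC1 replicate 2 for the others. Where 1 library of a group remained, it was assumed to vary like the other groups. Few 2-fold changes pass at these group sizes, so a gene that was not called may still differ.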
